A study of Canis lupus familiaris with 10 samples.

Results

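The miR-183 cluster comprises 3 microRNAs (miRNAs), cfa-miR-183, cfa-miR-96 and cfa-miR-182, and its levels were followed in each of 10 canine lymph node small RNA libraries. These were 3 of the 320 miRNAs listed in the deposited count table, and all 3 passed the filter on low counts that left 247 miRNAs for testing. They were chosen by their measured levels in these same libraries, which were known to be high in some nodes with diffuse large B-cell lymphoma (DLBCL), so that their levels and the difference between groups are a description. Calls on the members from fits across all miRNAs are counted beside the share of all miRNAs called, and nothing is read from them. The study compared the miRNAs of DLBCL with those of normal nodes in the dog (Canis lupus familiaris), and each library came from the fresh-frozen lymph node of a different dog.

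The DLBCL group held 6 libraries (DLBCL1 to DLBCL6) from pet dogs of several breeds and both sexes, whose affected peripheral nodes were taken by surgical biopsy under general anesthesia. The Healthy group held 4 libraries (Healthy2 to Healthy5) from young female hound crosses, purpose-bred for research, whose nodes were taken when the dogs were euthanized for teaching. The ages of the dogs with DLBCL are not given in the sources used here. Diagnosis cannot be told apart from breed, origin or mode of collection. Sex was not balanced either, since all 4 healthy dogs were female, and age cannot be compared between the groups.

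The cluster is transcribed as a shared primary transcript from which the 3 hairpins are cut. It is best known from sensory organs: photoreceptors and the hair cells of the inner ear contain large amounts of all 3 miRNAs, and mutations in the seed of miR-96, the stretch that pairs with target mRNAs, cause hearing loss in humans and mice. The cluster is raised in many carcinomas, and in lymphocytes miR-182 is induced when helper T cells are activated by interleukin-2 and represses the transcription factor FOXO1. The seeds of miR-96 and miR-182 are closely alike, whereas that of miR-183 differs.

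In the RefSeq annotation of the dog assembly UU_Cfam_GSD_1.0, all 3 genes were found, in the order MIR183, MIR96, MIR182, with 0 other genes between them. All 3 lay within the long noncoding RNA gene LOC102151305, and the nearest protein-coding genes on either side were UBE2H, which encodes a ubiquitin-conjugating enzyme, and NRF1, which encodes a transcription factor of mitochondrial and growth genes. The counts had been made against the earlier assembly CanFam3.1, so positions are not given.

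The libraries held 10686441 to 25784861 miRNA reads in DLBCL and 30432969 to 34709421 in Healthy, and the cluster members had 423 to 203669 reads per library, so that counting error was small beside the differences between dogs. Levels are given as CPM (counts scaled to a common library size) after TMM scaling, which corrects for a few abundant miRNAs taking up a library. The scaling factors ranged from 0.507 to 2.03, and a statement that changes when reads are instead divided by the plain library total, the TPM values of the deposited table, is marked. The lymphocyte miRNAs miR-150, miR-342, miR-142 and miR-155 had reads in every library, with a summed level of 8119 to 21050 CPM in DLBCL and 10970 to 27700 CPM in Healthy.

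The most abundant member was cfa-miR-182. Its level was 9586 CPM in DLBCL3, 2869 CPM in DLBCL1, 1064 CPM in DLBCL2, 307.0 CPM in DLBCL5, 105 CPM in DLBCL4 and 54.2 CPM in DLBCL6. In Healthy it was 286 CPM in Healthy4, 273 CPM in Healthy2, 253 CPM in Healthy3 and 89.1 CPM in Healthy5. The groups overlapped: DLBCL1, DLBCL2 and DLBCL3 stood 4.05 to 36.5 times above the healthy median, DLBCL5 was close to the healthy libraries, DLBCL4 lay within their range, and DLBCL6 lay below all of them. By plain library total, DLBCL5 was no longer above every healthy library and DLBCL6 was no longer below every one. In rank, cfa-miR-182 was the 20th most abundant miRNA of DLBCL3 and the 113th of DLBCL6, against 71st to 99th in the healthy libraries.

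The pattern of cfa-miR-183, the first hairpin of the cluster, was nearly the same at a lower level. It measured 4922 CPM in DLBCL3, 882 CPM in DLBCL1, 323 CPM in DLBCL2, 122 CPM in DLBCL5, 37.5 CPM in DLBCL4 and 19.6 CPM in DLBCL6. The healthy libraries had 124 CPM (Healthy2), 86.5 CPM (Healthy3), 84.1 CPM (Healthy4) and 33.0 CPM (Healthy5). Here too the same 3 DLBCL libraries stood above every healthy library, by 3.78 to 57.7 times the healthy median. DLBCL5 and Healthy2 could not be ordered, since their 95% counting intervals overlapped, and by plain library total DLBCL5 lay above every healthy library.

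The least abundant member in most libraries was cfa-miR-96, the middle hairpin. Its order among the DLBCL libraries was different, with 798 CPM in DLBCL1, 365 CPM in DLBCL2, 236 CPM in DLBCL3, 70.9 CPM in DLBCL4, 49.5 CPM in DLBCL5 and 16.6 CPM in DLBCL6. In Healthy it was 46.3 CPM in Healthy3, 36.4 CPM in Healthy4, 34.7 CPM in Healthy5 and 24.1 CPM in Healthy2. The highest level was thus in DLBCL1 and not in DLBCL3, and 5 of 6 DLBCL libraries were above every healthy library. DLBCL5 was not separated from Healthy3 by counting error and fell among the healthy libraries by plain library total, whereas DLBCL4 stayed above them under both scalings.

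**Figure D1:**
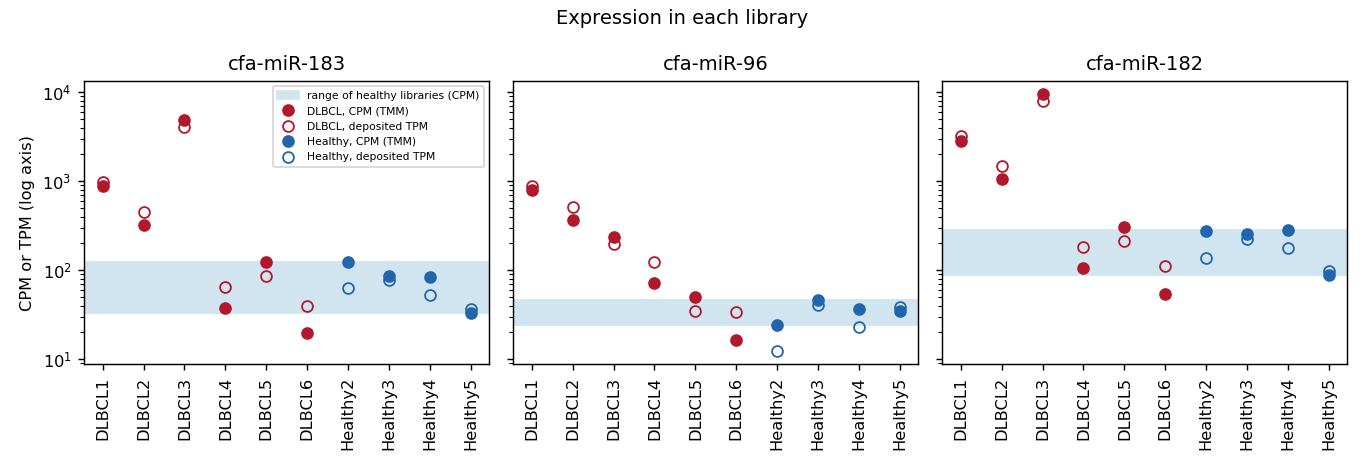
Level of each cluster member in each of the 10 libraries (CPM as filled circles, log axis), with DLBCL and Healthy libraries in different colors, deposited TPM as open circles and the healthy range of CPM shaded. DLBCL1, DLBCL2 and DLBCL3 lie above the healthy range for all 3 members and DLBCL6 lies below it on the TMM scale, with cfa-miR-182 at 9586 CPM in DLBCL3 and 54.2 CPM in DLBCL6.

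Summed over its members, the cluster made up 1.22% of all miRNA reads in DLBCL3, 0.509% in DLBCL1 and 0.247% in DLBCL2. It made up 0.0373% in DLBCL4, 0.0334% in DLBCL5 and 0.0184% in DLBCL6, against 0.0174% to 0.0342% in the healthy libraries. As a share of reads, the cluster thus fell into 3 DLBCL libraries well above the healthy ones and 3 at or near their level. In bulk nodes, a smaller number of cells that express the cluster and a lower level in each cell cannot be told apart.

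The members were among the miRNAs that differed most from one DLBCL library to the next. They were chosen with high levels in some DLBCL libraries known, so their spread and its ranks are a description too. The highest DLBCL library exceeded the lowest by 177.0 times for cfa-miR-182, 251 times for cfa-miR-183 and 48.1 times for cfa-miR-96, compared with 3.21, 3.74 and 1.93 times among the healthy libraries. By plain library total these ranges were 71.8, 102 and 26.5 times in DLBCL and 2.27, 2.09 and 3.37 times in Healthy, so that cfa-miR-96 went from the narrowest to the widest of the 3 in Healthy. The SD of log2 CPM over the 6 DLBCL libraries was 2.96 for cfa-miR-183, which ranked 4th of the 247 tested miRNAs, 2.86 for cfa-miR-182, which ranked 6th, and 2.06 for cfa-miR-96, which ranked 21st. The median over all tested miRNAs was 1.07. In Healthy the SDs were 0.81, 0.80 and 0.39, beside a median of 0.54. All 3 members thus varied more than the median miRNA in DLBCL, and cfa-miR-183 and cfa-miR-182 did so in Healthy too. The position of all 3 in Healthy depended on the scaling. By plain library total the SD of cfa-miR-96 was 0.81, above a median of 0.71. Those of cfa-miR-183 (0.45) and cfa-miR-182 (0.51) were below it.

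**Figure D2:**
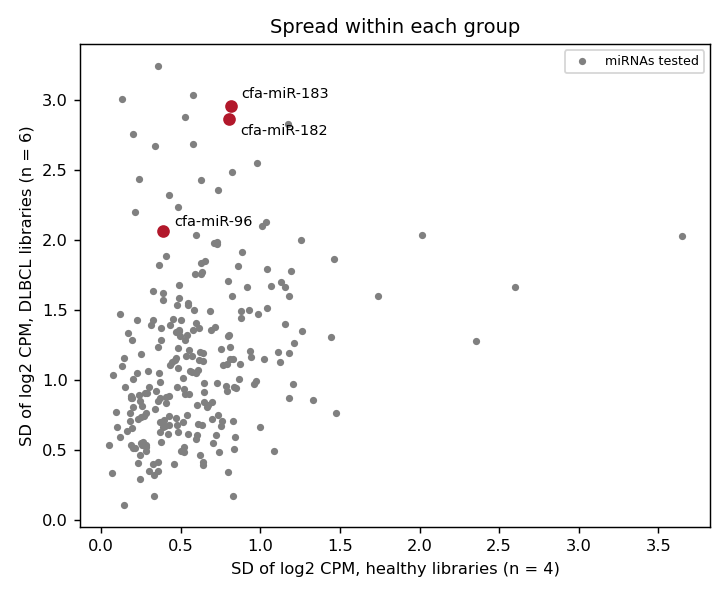
Spread of each tested miRNA between libraries, as the SD of log2 CPM over the 6 DLBCL libraries against that over the 4 Healthy libraries, with 247 miRNAs in grey and the cluster members named. The members lie at 2.06 to 2.96 for DLBCL, above the median of 1.07.

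The 3 members did not vary in the same proportions. cfa-miR-182 and cfa-miR-183 kept a nearly constant ratio, with 1.95 to 3.30 reads of cfa-miR-182 for each of cfa-miR-183 in DLBCL and 2.21 to 3.40 in Healthy, and medians of 2.78 and 2.81. The lowest ratio, 1.95, was that of DLBCL3, the library with the highest level of both. The log2 ratio had an SD of 0.28 in DLBCL and of 0.26 in Healthy.

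cfa-miR-96 departed from this proportion. DLBCL3 had 40.6 reads of cfa-miR-182 for each read of cfa-miR-96, whereas the other DLBCL libraries had 1.48 (DLBCL4) to 6.20 (DLBCL5) and the healthy libraries 2.57 (Healthy5) to 11.3 (Healthy2). Of the reads of the cluster, cfa-miR-96 took 1.60% in DLBCL3 and 33.2% in DLBCL4, the lowest and the highest of the 10 libraries. In Healthy it took from 5.72% in Healthy2 to 22.1% in Healthy5, so that its share also varied among nodes without lymphoma. cfa-miR-182 took 49.2% to 65.0% in DLBCL and 56.8% to 70.3% in Healthy, and was the largest part of the cluster in every library.

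**Figure D3:**
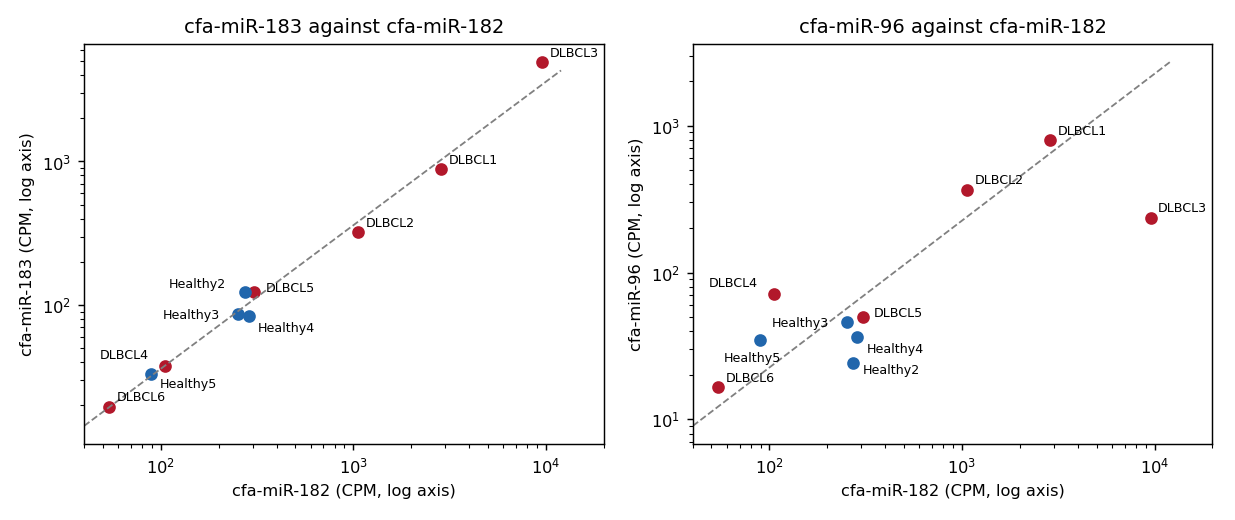
cfa-miR-183 (left) and cfa-miR-96 (right) against cfa-miR-182 in the 10 libraries (CPM, log axes), with the dashed line at the median ratio over libraries. The left points follow the line over the whole range, whereas DLBCL3 lies far under it on the right, at 236 CPM of cfa-miR-96 and 9586 CPM of cfa-miR-182.

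Across the 10 libraries, log2 CPM of cfa-miR-182 and cfa-miR-183 had a Pearson r of 0.995 and a Spearman rho of 0.939. The r was 0.996 over the 6 DLBCL libraries alone and 0.989 without DLBCL1 and DLBCL3, the libraries farthest from the median. For cfa-miR-182 and cfa-miR-96 the r was 0.818 and the rho 0.770, with an r of 0.826 in DLBCL alone and 0.742 without the same libraries. For cfa-miR-183 and cfa-miR-96 the r was 0.773 and the rho 0.709, with 0.775 in DLBCL alone and 0.689 without these libraries. The values are a description: points share libraries, depth and scaling. Among the 246 other tested miRNAs, cfa-miR-183 was the one whose pattern was most like that of cfa-miR-182, and the reverse also held. cfa-miR-96 ranked 4th for cfa-miR-182 and 16th for cfa-miR-183. Seen from cfa-miR-96, the closest of the 246 was cfa-miR-182 and the next, ranked 2nd, was cfa-miR-183. Over the 6 DLBCL libraries cfa-miR-96 ranked 12th for cfa-miR-182 and 26th for cfa-miR-183. Its own closest match there was miR-8908a-3p (r 0.841), followed by cfa-miR-182.

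The design compares DLBCL with healthy nodes, and for the members this comparison rested on part of the DLBCL libraries. For cfa-miR-182, DLBCL averaged 2331 ± 3709 CPM (SD, n = 6), against 225 ± 91.8 CPM (SD, n = 4) for Healthy. The means were 1051 ± 1923 CPM against 81.8 ± 37.2 CPM for cfa-miR-183, and for cfa-miR-96 they were 256 ± 297 CPM against 35.4 ± 9.12 CPM. In DLBCL the SD was larger than the mean for all 3.

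The log2 fold change of DLBCL over Healthy, from edgeR's quasi-likelihood fit across all 247 miRNAs, was 3.68 (SE 1.41) for cfa-miR-183, 3.37 (SE 1.29) for cfa-miR-182 and 2.85 (SE 0.94) for cfa-miR-96. These were the 7th, the 9th and the 11th largest increases of the 247, beside a median of 0.13 over all of them. A miRNA was called when its Benjamini-Hochberg adjusted p was under 0.05 and its fold change over 2. edgeR called 14 of 247 miRNAs (5.67%), 9 of them higher in DLBCL (3.64%) and 5 lower (2.02%), and 0 of the 3 members. All 3 members were among the 66 miRNAs (26.7%) with an unadjusted p under 0.05. The members were chosen with this contrast known, so these p-values are no test of them and nothing is read from them.

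The calls on the members differed between tools. DESeq2, the tool named in the study's methods, called 44 of 293 miRNAs (15.0%) and all 3 members, whereas limma-voom with sample quality weights called 46 of 247 (18.6%) and 0 members. edgeR with plain library totals called 23 (9.31%), and edgeR without DLBCL6 called 15 of 242 (6.20%). In both of these fits cfa-miR-96 was the called member. Since the members were chosen by this contrast, nothing is read from these counts.

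The size of the difference depended on single libraries. Without DLBCL3 the log2 fold change was 1.84 for cfa-miR-183 and 2.05 for cfa-miR-182, while that of cfa-miR-96 was 2.96. Without DLBCL1 the value for cfa-miR-96 was 2.05. The libraries also differed in base quality: in the study's read statistics, DLBCL1, DLBCL2, DLBCL3 and DLBCL5 had a higher share of bases at Q30 than DLBCL4, DLBCL6 and the 4 healthy libraries. All 3 libraries with a high cluster were in the first set, which held DLBCL libraries alone, but DLBCL5, also in that set, had levels near the healthy ones. Within the other set, DLBCL4 and DLBCL6 against Healthy, the log2 fold change was -1.53 for cfa-miR-183, -1.51 for cfa-miR-182 and 0.29 for cfa-miR-96. With 2 DLBCL libraries in the lower set and 0 healthy libraries in the higher one, the part of base quality in the difference was not tested.

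**Figure D4:**
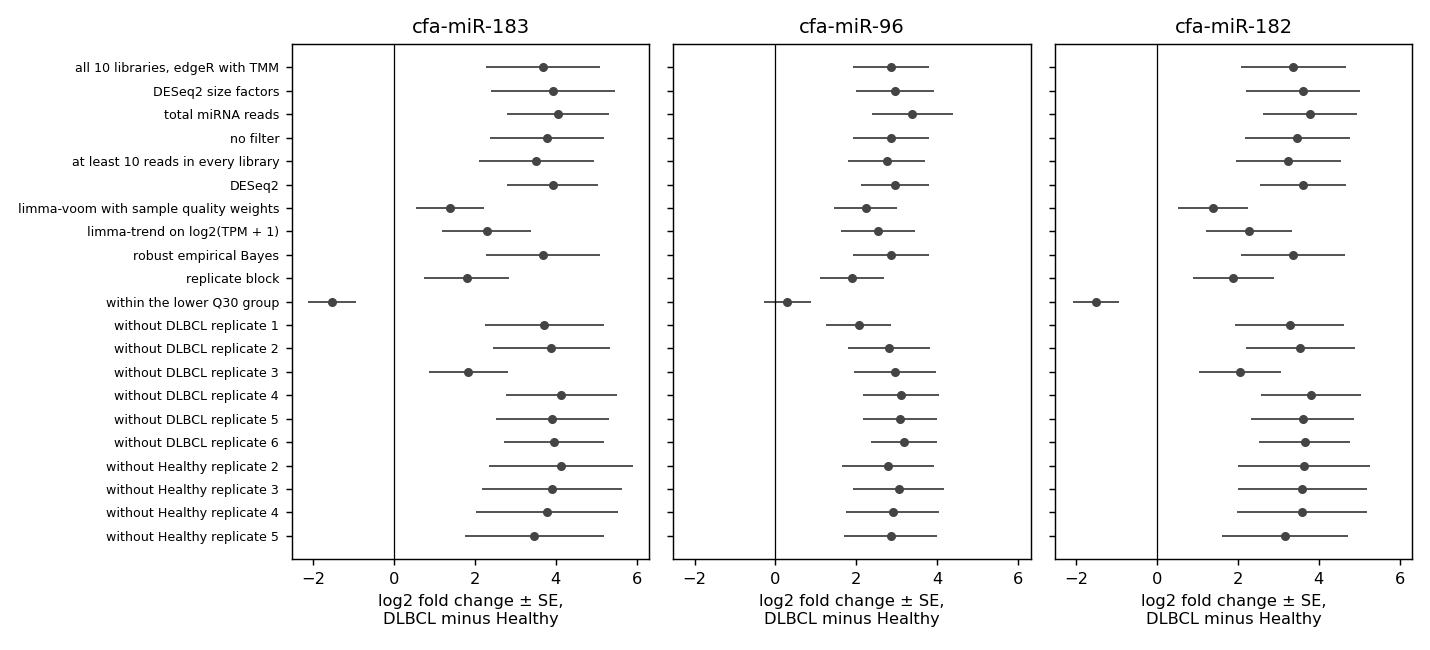
Log2 fold change of DLBCL over Healthy for each cluster member under the reported fit and each alternative, with bars of 1 SE. Most values lie above 0, and the comparison within the lower base quality set lies at -1.53 for cfa-miR-183, -1.51 for cfa-miR-182 and 0.29 for cfa-miR-96.

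cfa-miR-1271, which shares the seed of miR-96 by textbook knowledge but is encoded elsewhere in the genome, followed the cluster in part, with an r of 0.567 with the mean of the members over the 10 libraries and 0.482 over DLBCL alone, beside a median of -0.21 and -0.24 over all miRNAs compared. Its level in DLBCL1 to DLBCL6 was 518, 376, 1281, 343, 1218 and 342 CPM, and in Healthy2 to Healthy5 it was 286, 412, 397 and 363 CPM. It was high in DLBCL3 and DLBCL5, and DLBCL2, where the cluster was high, lay within the healthy range. By plain library total, all 6 DLBCL libraries were above the healthy ones. The log2 fold change was 0.90 (SE 0.49), and it was not called. Within the lower base quality set it was -0.10.

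Marker miRNAs of cell types that a node biopsy could hold, or in which the cluster is known, and of the miR-17/92 cluster were read beside the members. Of 8 epithelial miRNAs, 4 passed the filter and 0 were called, with a median log2 fold change of 0.79 that was -0.12 without DLBCL3 and 0.43 without DLBCL5. Their summed level was 19.0 to 203 CPM in DLBCL, with a median of 26.5 CPM, and 22.4 to 37.0 CPM in Healthy. The highest library was DLBCL3, which also had the highest cfa-miR-182 and cfa-miR-183. In DLBCL3, miR-200c measured 108 CPM, miR-375 measured 72.6 CPM and miR-200a measured 14.5 CPM (307 reads), whereas miR-200b, of the same family, had 0 reads, miR-429 had 11 reads and miR-205, a marker of squamous and basal epithelium, had 7 reads. The other two did not follow: in DLBCL3, miR-203 was at 3.25 CPM, the lowest of the 10 libraries, and miR-141 was at 4.05 CPM, within the healthy range. The epithelial sum was also above the healthy libraries in DLBCL5 (71.3 CPM), where the cluster was not high and 48.7 CPM of the sum was miR-203. By plain library total the sum was above them in DLBCL4 and DLBCL6 as well, beside a healthy maximum of 32.6 TPM. It was 22.2 CPM in DLBCL1 and 19.0 CPM in DLBCL2, where the cluster was high. The part of these markers in the levels of the cluster was not tested.

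Of 5 miRNAs of nerve and sensory cells, 3 passed the filter and 0 were called, with a median log2 fold change of 1.56. Their sum, most of it miR-7, was 6396 to 48050 CPM in DLBCL and 4006 to 8948 CPM in Healthy, and was again highest in DLBCL3. By plain library total this sum did not overlap between the groups. Taken singly, 4 of the 5 miRNAs overlapped between the groups by plain library total, and all 5 on the TMM scale. miR-9, a miRNA of neural progenitors that is also found in B cells, reached 1854 CPM in DLBCL3, 782 CPM in DLBCL6 and 488 CPM in DLBCL1. DLBCL6 thus had a high miR-9 with the lowest level of each cluster member. By plain library total its miR-9 was the highest, at 1590 TPM against 1527 TPM in DLBCL3, and it was not the lowest of the 10 libraries for any member. miR-124 and miR-211, of neurons and of pigment cells, had at most 11 and 7 reads in any library. miR-204, the remaining miRNA of the list, passed the filter and went the other way, with a log2 fold change of -1.31. Its lowest library under both scalings was DLBCL3, at 2.97 CPM, against 8.03 to 33.6 CPM in Healthy.

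The 6 miRNAs of the miR-17/92 cluster, which MYC induces, had a median log2 fold change of 1.80, and 0 of 6 were called. Their sum was 5607 to 15100 CPM in DLBCL and 1906 to 2827 CPM in Healthy, without overlap under either scaling. It was highest in DLBCL3, where miR-92a made up 14160 CPM of it, and by plain library total in DLBCL4. Taken singly, miR-17, miR-18a, miR-19a, miR-19b and miR-20a were at their lowest DLBCL level in DLBCL3, within the healthy range under both scalings. Of 4 miRNAs of red blood cells, 3 were called higher in DLBCL, miR-451, miR-486 and miR-486-3p, of which the latter pair come from 1 hairpin. The median was 4.70, and the sum was 5740 to 48890 CPM against 873 to 1278 CPM. The sum was highest in DLBCL3, but with that hairpin counted once it was highest in DLBCL1 (35570 CPM, against 31750 CPM in DLBCL3), and by plain library total in DLBCL2. Of 5 miRNAs of stroma and vessels, 0 were called, with a median of -0.74 that was 0.15 by plain library total, and a sum of 18870 to 70630 CPM against 26910 to 55300 CPM. Most of that sum was miR-143, which was lowest in DLBCL4 on the TMM scale and in DLBCL3 by plain library total. Taken singly, miR-145, miR-199, miR-214 and miR-126 were lowest of all libraries in DLBCL3 under both scalings, at 85.0, 239, 9.70 and 8.85 CPM. Their healthy minima were 575, 2081, 66.7 and 94.3 CPM. Of the 4 lymphocyte miRNAs, 1 was called, miR-150, a miRNA of mature lymphocytes, which was lower, and their median was -0.27. By plain library total that median was 0.47, so the direction of both lists depended on the scaling.

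The miRNAs most like the cluster were ranked by the Pearson r of log2 CPM with the mean of the 3 members. Over the 10 libraries the highest of 244 were miR-222 (0.889), miR-7 (0.832), miR-30d (0.816), miR-486-3p (0.787), miR-486 (0.785) and miR-92b (0.780), beside a median r of -0.21 over all. All 6 were highest in DLBCL3 on the TMM scale, whereas by plain library total miR-30d was highest in DLBCL1. Since cfa-miR-182 and cfa-miR-183 were highest in DLBCL3, this shared library follows in part from the choice and is no separate result. miR-486 and miR-486-3p come from a single hairpin and had nearly equal counts, so they are not separate observations, and miR-92b reached no more than 2.68 CPM in any library.

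miR-222, which represses the cell cycle inhibitor p27, measured 1657, 581, 2416, 715, 729 and 164 CPM in DLBCL1 to DLBCL6. In Healthy2 to Healthy5 it was 445, 583, 613 and 294 CPM. As with cfa-miR-182 and cfa-miR-183, DLBCL3 and DLBCL1 were the highest libraries and, on the TMM scale, DLBCL6 the lowest. By plain library total Healthy2 was the lowest for miR-222, at 225.5 TPM. Unlike those members, miR-222 in DLBCL2 was within the healthy range on the TMM scale, and its range in DLBCL was narrower. Its log2 fold change was 1.11 (SE 0.62). miR-7, which is abundant in neuroendocrine cells, ranged from 5610 to 46190 CPM in DLBCL and from 3904 to 8825 CPM in Healthy. miR-30d, a broadly expressed miRNA, ranged from 14480 to 46710 CPM in DLBCL and from 7250 to 13870 CPM in Healthy, with no overlap between the groups on the TMM scale and an overlap by plain library total.

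Over the 6 DLBCL libraries alone, the highest r were those of miR-8908a-3p (0.932), miR-222 (0.878), miR-345 (0.876), miR-30d (0.858), miR-7 (0.824) and miR-486-3p (0.816), beside a median of -0.24. Of these, 4 were also among the 6 over all libraries. miR-8908a-3p and miR-345 were scarce in DLBCL, with at most 1.88 CPM of miR-8908a-3p and 1.99 CPM of miR-345, and with plain library totals the r of miR-345 was 0.474. That of miR-30d was also lower with plain totals, 0.514 over DLBCL and 0.71 over the 10 libraries.

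**Figure D5:**
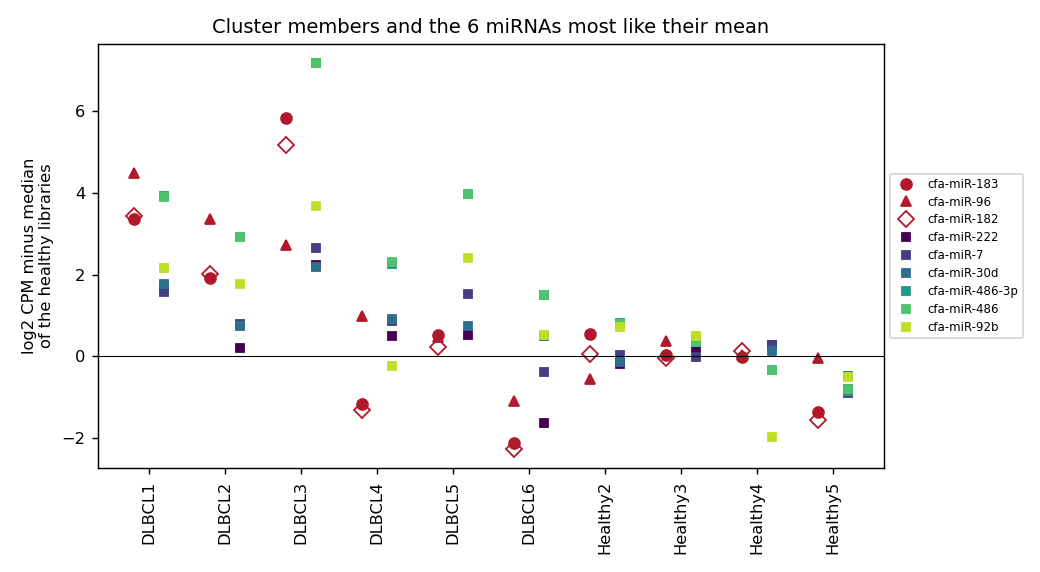
Level of the cluster members and of the 6 miRNAs most like their mean in each library, as log2 CPM minus the median of the healthy libraries, with members as red symbols and the others as squares (those of miR-486-3p lie beneath miR-486). On this TMM scale DLBCL3 is the highest library for each of the 6 and for cfa-miR-182 and cfa-miR-183, whereas cfa-miR-96 is highest in DLBCL1. The 6 were chosen for their likeness to the members, so their shared highest library follows in part from that choice.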

How the data were processed

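Small RNA was sequenced from 6 DLBCL and 4 healthy canine lymph nodes. The authors mapped reads with Bowtie (0.12.9; build CanFam3.1, per the submitters' processing notes) and deposited read counts per known miRNA, unnormalized, with TPM values that the authors made by dividing each count by the library's total miRNA count (largest difference from that quotient 4.55e-05). The multi-mapping rule is not given in the sources used here. The file held no other column of values.

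Counts were analysed in R 4.3.3 with edgeR 4.0.16 (TMM, filterByExpr, quasi-likelihood test, Benjamini-Hochberg adjustment). Log2 CPM used a prior count of 2. Calls needed an adjusted p under 0.05 and a fold change over 2, the thresholds of the study's methods. DESeq2 1.42.0, limma 3.58.1 (voom with sample weights, and trend on log2(TPM + 1)), other scalings and filters, robust empirical Bayes, a replicate block, the lower base quality libraries alone and leaving out each library were alternatives. Scripts were tested on simulated data. Counting intervals (95%) and totals cover counting error only, because reads carried no molecular identifiers. Each library was 1 dog, and libraries of a group differed far beyond sampling noise.

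Named miRNAs were the members, cfa-miR-1271, the marker lists, and the 6 miRNAs most correlated with the mean of the members over all libraries and over DLBCL alone. Members and lists were chosen with earlier results of these data known. Sequences of miRNAs were not used here, so cfa-miR-1271 was taken as a seed relative from general knowledge. The base quality sets were read from the study's read statistics.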

Additional observations from a re-analysis of the deposited data

Results flagged for a closer look

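Within each group, the gap from the highest or lowest library to its nearest neighbor was divided by the range of the group and set against Dixon's 95% critical value. Of 30 groups of values looked at (members, their ratios, cfa-miR-1271 and the miRNAs most like the cluster), 6 exceeded it, and chance gives about 1 in 20. DLBCL3 stood apart from the other DLBCL libraries in 5: cfa-miR-183 at 4922 CPM (gap 0.824 of the range), cfa-miR-182 at 9586 CPM (0.705), miR-486-3p at 17133 CPM (0.910), miR-486 at 17490 CPM (0.909) and miR-92b at 2.68 CPM (0.629). These 5 share 1 library and are not independent, and the miRNAs were chosen for high levels in some DLBCL libraries or for likeness to those, so the number cannot be read against chance. In Healthy, Healthy5 was the lowest for cfa-miR-182 at 89.1 CPM (0.834). On the same measure cfa-miR-96 had no library that stood apart in either group. Levels entered this rule as CPM, not log2 CPM, and ratios as log2. The rule was not run by plain library total, so the flags hold for the TMM scale only. By plain library total cfa-miR-182 was 98.9 TPM in Healthy5 and 138 TPM in Healthy2, in a healthy range up to 224 TPM. It was 7899 TPM in DLBCL3 and 3208 TPM in DLBCL1.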

How the results depend on the processing

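The log2 fold changes of the members stayed above 0 in 19 of 20 alternatives for cfa-miR-183 and cfa-miR-182 and in 20 of 20 for cfa-miR-96. The exception was the comparison within the lower base quality libraries, with -1.53 for cfa-miR-183 and -1.51 for cfa-miR-182, where cfa-miR-96 had 0.29. Leaving out 1 library at a time gave 1.84 to 4.14 for cfa-miR-183, 2.05 to 3.17 for cfa-miR-96 and 2.05 to 3.80 for cfa-miR-182. With limma-voom and sample weights the values, in the same order, were 1.38, 2.23 and 1.38. Plain library totals moved the median of all miRNAs from 0.13 to 0.82, and relative to that median the members had 3.23, 2.56 and 2.95, against 3.55, 2.72 and 3.24 with TMM.

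The 14 miRNAs called became 8 with DESeq2 size factors, 23 with total reads, 44 with DESeq2, 46 with limma-voom and 46 within the lower base quality libraries. Leaving out 1 library gave 1 to 23 calls: 3 without DLBCL1, 22 without DLBCL3, 23 without DLBCL4, and 2, 5, 1 and 6 without Healthy2, Healthy3, Healthy4 and Healthy5. The cause was not tested. With the replicate block, 1 miRNA was called, and the members had 1.80, 1.90 and 1.88 (cfa-miR-183, cfa-miR-96, cfa-miR-182). The numbers name different dogs, and deviations of same-numbered libraries had correlations of -0.33 to 0.26, so they do not pair the samples.

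The median of the epithelial list lay below 0 in 4 of 20 alternatives, among them without DLBCL3 (-0.12), and without DLBCL3 that of the red blood cell list was 3.12. The 6 and 4 libraries limit the precision of every group difference, whereas the depth does not limit the members' levels.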
